A study of Mus musculus with 23 samples.

Results

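The genes described here are 9 output and REV-ERB genes of the circadian clock: Dbp, Tef, Hlf, Nfil3, Nr1d1, Nr1d2, Ciart, Bhlhe40 and Bhlhe41. They were taken from a list of gene names and matched by symbol to the Ensembl IDs of the count table, which gave 9 genes of 55573 IDs, each with 1 ID. They were measured in the quadriceps muscle of 23 C57BL/6J mice, 8 to 10 weeks old, that had carried a slow-release pellet under the skin for 14 days and were fasted for 5 hours before they were killed. Pellets held 50 mg corticosterone with cholesterol (CORT) or cholesterol alone (VEH), and the groups were 6 male VEH, 6 male CORT, 6 female VEH and 5 female CORT mice. Mice are called M or F, for their sex, with their number. The sources used here give no hour of collection, and each mouse gave 1 sample, so that a lower level of a rhythmic gene and a shift in the time of its peak cannot be told apart.

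In the circadian clock, BMAL1 (encoded by Arntl) and CLOCK activate genes through E-boxes, among them the Per and Cry genes whose proteins then repress them. The output genes carry that rhythm on. DBP, TEF and HLF form the PAR bZIP family and activate genes through D-boxes, while NFIL3 (E4BP4) binds the same D-boxes and represses. REV-ERBα (Nr1d1) and REV-ERBβ (Nr1d2) are nuclear receptors that repress Arntl and Nfil3 through the elements that the ROR receptors use for activation. CIART (CHRONO) and the bHLH factors BHLHE40 (DEC1) and BHLHE41 (DEC2) repress BMAL1 and CLOCK. Corticosterone, the main glucocorticoid of mice, normally has a daily rhythm of its own, while a slow-release pellet supplies it throughout the day.

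All 9 genes are protein coding, and their positions in GENCODE M21 (GRCm38, mm10) are as follows. The PAR bZIP genes are Dbp (ENSMUSG00000059824) at chr7:45705088-45710203 on the plus strand, Tef (ENSMUSG00000022389) at chr15:81802421-81826863 on the plus strand and Hlf (ENSMUSG00000003949) at chr11:90336536-90390895 on the minus strand. The repressor Nfil3 (ENSMUSG00000056749) lies at chr13:52967209-52981073 on the minus strand. The REV-ERB genes are Nr1d1 (ENSMUSG00000020889) at chr11:98767932-98775333 on the minus strand and Nr1d2 (ENSMUSG00000021775) at chr14:18204054-18239127 on the minus strand. Of the repressors of BMAL1 and CLOCK, Ciart (ENSMUSG00000038550) lies at chr3:95878503-95882251 on the minus strand, Bhlhe40 (ENSMUSG00000030103) lies at chr6:108660629-108666925 on the plus strand and Bhlhe41 (ENSMUSG00000030256) lies at chr6:145858243-145865558 on the minus strand.

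The 250 bases before the start of each gene, as RefSeq gives them on GRCm38.p6, were searched on both strands for 5 motifs. A window was found for 8 of the 9 genes, 9 windows in all because Tef has a pair of them. The E-box CACGTG was found in Tef, Ciart and Bhlhe41, 3 of the 8 genes, against 6.02% of all 32851 windows. Ciart held 3 of them, which begin 116, 58 and 44 bases before the start, and 3 or more E-boxes were found in 0.0609% of all windows. The related letters CACGTT were found in Nr1d1, beginning 28 bases before the start, against 3.85% of all windows. TAGGTCA, the core of the ROR and REV-ERB element, was found in Nfil3, beginning 12 bases before the start, against 2.23%. The D-box TTATGTAA (0.819% of all windows) and the glucocorticoid receptor element, searched as GNACA and TGTNC 3 bases apart (0.387%), were found in 0 of the 8 genes. No match overlapped a match of another motif, and the letters say nothing about binding. The stretches of 3 genes are shown, up to the nearest annotated exon, because they hold the matches of the gene with the most E-boxes, of the gene that differed between the sexes, and of the more abundant REV-ERB gene. Capitals mark the E-boxes of Ciart and Bhlhe41 and the related letters, on the opposite strand, of Nr1d1.
Ciart (chr3:95882252.0-95882478.0, minus strand): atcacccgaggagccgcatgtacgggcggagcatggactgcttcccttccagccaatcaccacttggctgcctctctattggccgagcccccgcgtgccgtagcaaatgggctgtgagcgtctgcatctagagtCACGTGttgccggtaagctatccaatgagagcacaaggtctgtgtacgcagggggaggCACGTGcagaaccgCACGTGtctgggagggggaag
Bhlhe41 (chr6:145865559.0-145865670.0, minus strand): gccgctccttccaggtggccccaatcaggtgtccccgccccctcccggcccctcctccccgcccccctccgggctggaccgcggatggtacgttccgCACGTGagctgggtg
Nr1d1 (chr11:98775378.0-98775627.0, minus strand): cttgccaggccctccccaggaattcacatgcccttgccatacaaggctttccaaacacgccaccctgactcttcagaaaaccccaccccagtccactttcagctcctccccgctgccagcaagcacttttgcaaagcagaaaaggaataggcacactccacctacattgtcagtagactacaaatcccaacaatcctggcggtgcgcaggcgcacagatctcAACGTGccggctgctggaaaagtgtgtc

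Between 20904150 and 21984477 read pairs were counted on genes per mouse, with a median of 21312841. All 9 genes passed the filter on low counts and were tested, and only Ciart, with 13 to 212 counts per mouse, was near it. The counting was by strand, and each gene that overlaps Dbp (Sphk2), Nr1d1 (Thra) or another of the 9 lies on the opposite strand. The pellets were read out by 6 genes that glucocorticoids are known to induce. Of these, 6 were called higher in males and 2 in females, Fkbp5 (log2 fold change 3.05) and Ddit4 (2.24). In females all 6 had a positive log2 fold change and an unadjusted p under 0.05 (edgeR), with a median of 0.81 against 1.37 in males. For the difference between the responses of the sexes 0 of the 6 were called. The 7 muscle fibre markers, which identify the tissue, summed to 70226 to 180488 CPM per mouse, with median log2 fold changes of 0.09 in males and -0.16 in females. Of 5 erythrocyte markers 4 rose in each sex, with summed levels of 104 to 204 CPM (counts scaled to the normalized library size) in male VEH against 189 to 674 in male CORT and 84.9 to 398 in female VEH against 293 to 602 in female CORT. Of 4 fibroblast markers 2 fell in males (723 to 1045 CPM against 302 to 463), with summed levels of 636 to 1369 CPM in female VEH and 461 to 853 CPM in female CORT mice. Of 6 adipocyte markers 1 rose in females, where summed levels were 57.5 to 1706 CPM with VEH and 36.7 to 4147 with CORT. Of 4 endothelial markers 1 fell in males, and hepatocyte markers summed to 15.3 to 2389 CPM over the 23 mice. No marker was at 0 in every mouse of a group, and the part of these cell types in the results was not tested. In bulk RNA, fewer cells of a type and less RNA per cell cannot be told apart.

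Levels differed widely among the 9 genes. Normalized for exon length and library size (RPKM), the order of the mean level in male VEH mice was Nr1d1 with 72.7 ± 15.0 (SD, n = 6), Tef with 35.3 ± 3.34, Dbp with 31.1 ± 10.3, Bhlhe40 with 25.5 ± 5.90, Nr1d2 with 19.6 ± 1.84, Bhlhe41 with 12.3 ± 0.874, Nfil3 with 12.1 ± 5.71, Ciart with 2.004 ± 0.825 and Hlf with 1.95 ± 0.249. In that order the ranges over mice overlapped between the neighbours Tef and Dbp, Dbp and Bhlhe40, Bhlhe40 and Nr1d2, Bhlhe41 and Nfil3, and Ciart and Hlf. Within a group the genes also differed in how far mice lay apart. In female VEH mice the highest level was 7.99 times the lowest for Ciart, 3.75 times for Nfil3 and 3.21 times for Dbp, against 1.56 times for Tef and 1.58 times for Nr1d2.

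**Figure D1:**
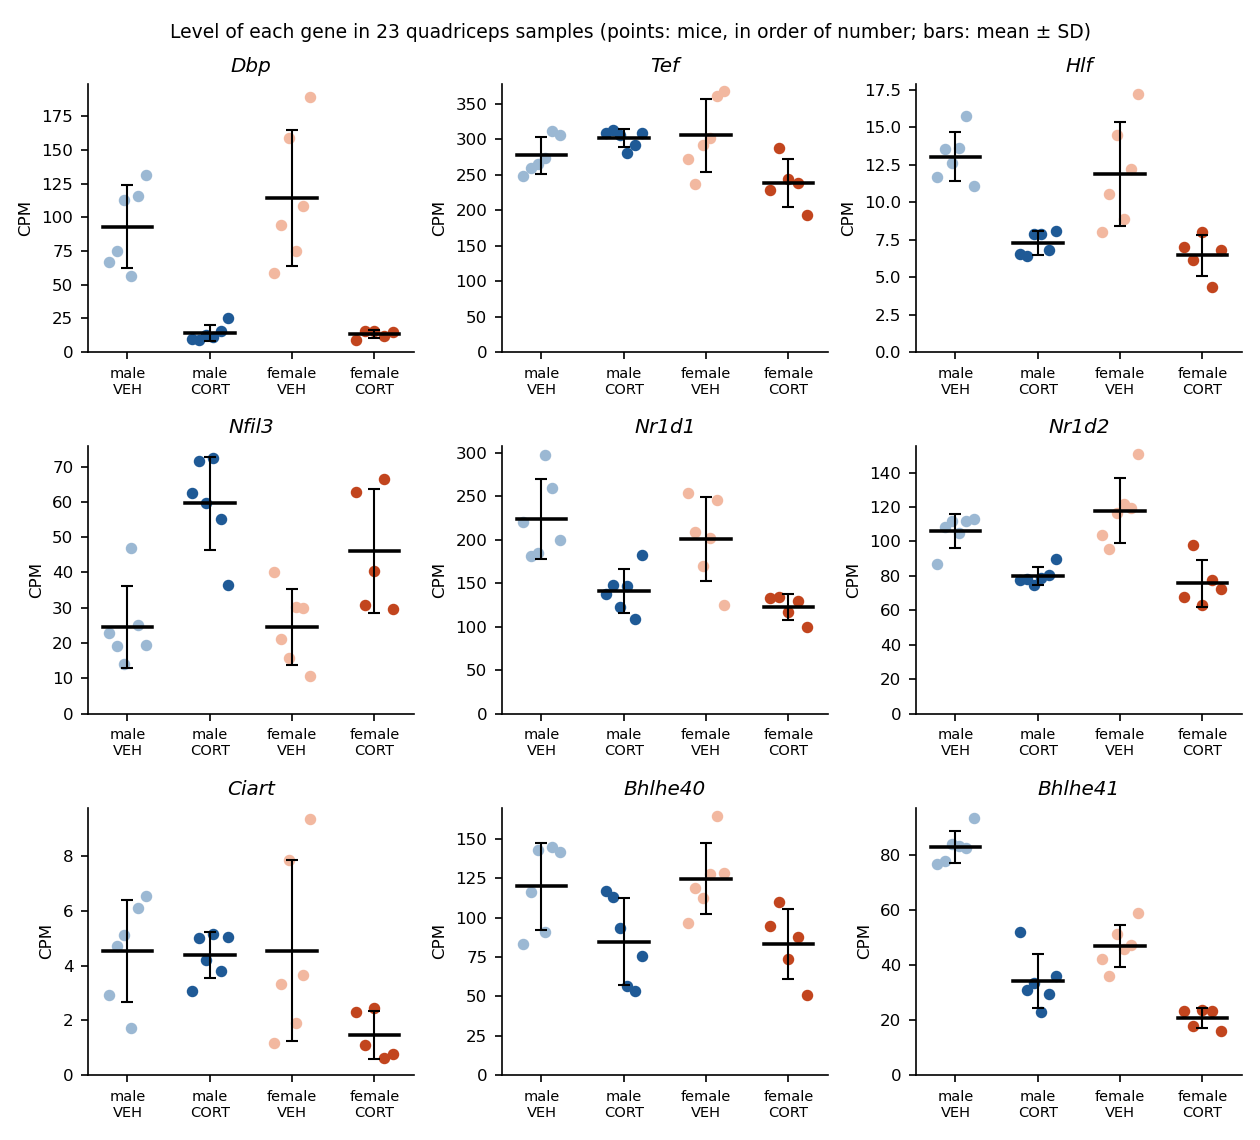
Level of each of the 9 genes (CPM, linear axis from 0) in each of the 23 mice, by group, with the group mean and SD as bars. Every CORT mouse lies below every VEH mouse of its sex for Dbp, Hlf and Bhlhe41, and Ciart ranges from 0.640 to 2.46 CPM in female CORT mice, the group with its lowest mean.

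Corticosterone lowered the level of 5 of the 9 genes in both sexes: Dbp, Hlf, Nr1d1, Nr1d2 and Bhlhe41. In males 6 of the 9 genes passed the test, 1 higher (Nfil3) and 5 lower, where 13.2% of all 13049 genes tested were called higher and 13.0% lower. In females 5 of the 9 passed, all lower, against 7.25% of all genes called higher and 5.98% called lower. Tef, Ciart and Bhlhe40 passed in neither sex. For 3 of the 9 genes every CORT mouse lay below every VEH mouse, in males and in females, against 11.1% of all genes in males and 4.34% in females. The median log2 fold change of the 9 genes was -0.50 in males and -0.71 in females, beside -0.02 and 0.04 over all genes tested. With only the 2 female groups in the fit, 2 of the 9 genes passed in females, Dbp and Bhlhe41.

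Of the PAR bZIP activators, Dbp, the member with the strongest daily rhythm in most tissues, fell the most. In males its level was 56.0, 94.0 and 131 CPM (lowest, median and highest of 6) with VEH and 9.17, 11.7 and 25.4 CPM with CORT. The groups lay apart, and M12 was the highest of the CORT males. Dbp was 6.65-fold lower with CORT in males (log2 fold change -2.73, SE 0.31, adjusted p = 1.18e-06). In females Dbp was at 58.9, 101 and 189 CPM with VEH and at 8.68, 15.5, 15.7, 11.8 and 14.9 CPM in the 5 CORT mice F2, F4, F6, F8 and F10. Here too the groups lay apart, by a wide margin. The decrease was 8.56-fold (log2 fold change -3.10, SE 0.34, adjusted p = 4.89e-06).

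Hlf, the least abundant of the PAR bZIP genes in this muscle, fell in both sexes. Males had 11.1, 13.1 and 15.7 CPM with VEH and 6.41, 7.34 and 8.10 CPM with CORT, a log2 fold change of -0.84 (SE 0.16, adjusted p = 3.20e-04). Females had 8.002, 11.4 and 17.2 CPM with VEH and 7.002, 6.12, 8.001, 4.33 and 6.80 CPM with CORT, a log2 fold change of -0.88 (SE 0.17, adjusted p = 9.03e-04). The groups of males lay clearly apart, and the groups of females only just, F1 with VEH and F6 with CORT having nearly the same level. With only the female groups in the fit the adjusted p of Hlf was 0.0178.

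Tef had the highest mean level per length of the PAR bZIP genes. In female VEH mice it was close to that of Dbp (38.8 and 38.1 RPKM). Tef did not pass the test in either sex, and its sign differed between the sexes. Males had 248, 269.7 and 312 CPM with VEH and 280.3, 307 and 314 CPM with CORT, and all 6 CORT males were above the VEH mean of 278 CPM. The log2 fold change was 0.12 (95% CI -0.09 to 0.33, adjusted p = 0.376). Females had 237, 297 and 369 CPM with VEH and 229, 287, 244, 238 and 193 CPM with CORT, and all 5 CORT females were below the VEH mean of 306 CPM. The log2 fold change of -0.36 (95% CI -0.58 to -0.13) had an adjusted p of 0.0184. That call depended on the tool and on single mice: the adjusted p was 0.00399 with DESeq2, 0.00537 with limma-voom, 0.00477 without F3 and 0.00524 without F4, and it reached 0.0792 among the other alternatives for Tef.

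Dbp made up less of the PAR bZIP transcripts with CORT, and Tef more. Of the summed level per length of Dbp, Tef and Hlf, Dbp held 44.5 ± 7.20% (SD, n = 6) in male VEH mice and 10.4 ± 3.83% in male CORT mice. In females its share was 46.8 ± 9.11% (n = 6) and 12.5 ± 2.85% (n = 5). The shares of VEH mice, of 33.6% and above, did not overlap with those of CORT mice, of 17.4% and below. The share of Tef was 52.6% of the sum in male VEH and 87.1% in male CORT mice, and 51.0% and 84.8% in females. The level of Tef itself was 35.3 RPKM in male VEH and 38.3 in male CORT mice, and 38.8 and 30.3 RPKM in females. The sum itself was 68.3 ± 12.9 RPKM in male VEH and 44.1 ± 2.72 in male CORT mice, and 78.7 ± 21.7 and 35.7 ± 4.59 RPKM in females. These sums and shares are descriptions and were not tested.

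Nfil3, the repressor at the same D-boxes, moved the other way. Males had 13.9, 21.2 and 46.9 CPM with VEH and 36.5, 61.0 and 72.4 CPM with CORT. M7 alone among the VEH males was above the lowest CORT male, M12. Nfil3 rose 2.42-fold in males (log2 fold change 1.28, SE 0.31, adjusted p = 0.00284). Females had 10.7, 25.6 and 40.1 CPM with VEH and 62.7, 30.8, 40.4, 66.6 and 29.8 CPM with CORT, so that F4 and F10 were within the range of the VEH females. All 5 CORT females were above the VEH mean of 24.6 CPM, and the log2 fold change of 0.90 (SE 0.32, adjusted p = 0.0432) did not pass. The summed PAR bZIP level per length was 6.61 ± 2.90 times that of Nfil3 in male VEH and 1.60 ± 0.571 times in male CORT mice, and 8.69 ± 6.95 and 1.78 ± 0.735 times in females.

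**Figure D2:**
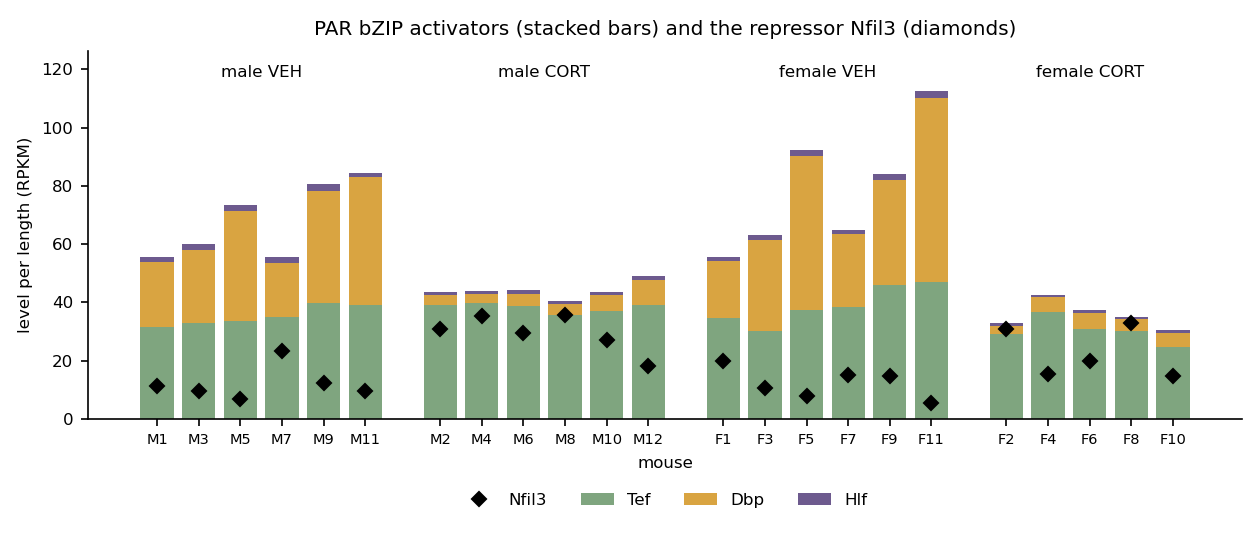
Level per length (RPKM) of Tef, Dbp and Hlf as stacked bars and of Nfil3 as diamonds in each of the 23 mice, by group. The Dbp part of the bar is 33.6% or more of it in every VEH mouse and 17.4% or less in every CORT mouse, and Nfil3 comes near the top of the bar in the CORT mice M8, F2 and F8.

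Both REV-ERB genes fell in both sexes. Nr1d1 in males was at 181, 209.6 and 298 CPM with VEH and at 109, 142 and 183 CPM with CORT, where M12 lay just above the lowest VEH male, M3. Its log2 fold change was -0.67 (SE 0.16, adjusted p = 0.00215). In females Nr1d1 was at 125, 205 and 254 CPM with VEH and at 133, 134, 117, 129 and 99.1 CPM with CORT. F11, the lowest VEH female, was within the range of the CORT mice, and the log2 fold change was -0.71 (SE 0.17, adjusted p = 0.00380). This call of Nr1d1 in females was lost without F1 (adjusted p = 0.0112), F9 (0.0105), F6 (0.0105) or F10 (0.0115), with limma-voom (0.0168) and with only the female groups in the fit (0.0169).

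Nr1d2 in males was at 86.7, 110.0 and 113 CPM with VEH and at 74.9, 78.4 and 89.9 CPM with CORT. M1 was the lowest of the VEH males by far, and the only one within the range of the CORT males. The log2 fold change was -0.41 (SE 0.11, adjusted p = 0.00428), and the call of Nr1d2 in males was lost without M11 (adjusted p = 0.0105), without M6 (0.0108) and with no filter beyond 1 count (0.0160). In females Nr1d2 was at 95.3, 118 and 151 CPM with VEH and at 67.9, 98.0, 62.8, 77.6 and 72.4 CPM with CORT, only F4 being as high as a VEH female. The log2 fold change was -0.64 (SE 0.11, adjusted p = 3.89e-04). With only the female groups in the fit the adjusted p of Nr1d2 was 0.0120.

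Among the repressors of BMAL1 and CLOCK, Bhlhe41 fell in both sexes. Males had 76.8, 82.9 and 93.3 CPM with VEH and 22.8, 32.1 and 51.9 CPM with CORT, with M2 the highest of the CORT males. The groups lay apart, and the log2 fold change was -1.28 (SE 0.15, adjusted p = 1.19e-06). Females had 36.1, 46.4 and 58.8 CPM with VEH and 23.3, 17.8, 23.7, 23.1 and 15.98 CPM with CORT. These groups lay apart too, and the log2 fold change was -1.17 (SE 0.16, adjusted p = 3.37e-05). Its relative Bhlhe40 did not pass in either sex. The log2 fold change of Bhlhe40 was -0.50 in males (95% CI -0.93 to -0.07, adjusted p = 0.0608) and -0.58 in females (95% CI -1.04 to -0.13, adjusted p = 0.0536). All 6 male and all 5 female CORT mice were below the VEH mean of their sex, which was 119.9 CPM in males and 125 CPM in females, and the ranges overlapped.

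Ciart was the one of the 9 genes whose fold changes were furthest apart between the sexes. Males had 1.72, 4.93 and 6.56 CPM with VEH and 3.07, 4.61 and 5.16 CPM with CORT, a log2 fold change of -0.05 (95% CI -0.93 to 0.83, adjusted p = 0.940). Females had 1.17, 3.51 and 9.35 CPM with VEH and 2.32, 1.11, 2.46, 0.640 and 0.755 CPM with CORT. The log2 fold change of -1.64 (95% CI -2.62 to -0.65, adjusted p = 0.0144) did not pass, and F1 and F7 with VEH were within the range of the CORT females. The adjusted p of Ciart depended on the tool and on F1: it was 0.00562 without F1 and 0.00182 with DESeq2, but 0.0665 with only the female groups in the fit and 0.138 with limma-voom, where the log2 fold change was -1.28. The female CORT values of Ciart rest on 13 to 61 counts.

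**Figure D3:**
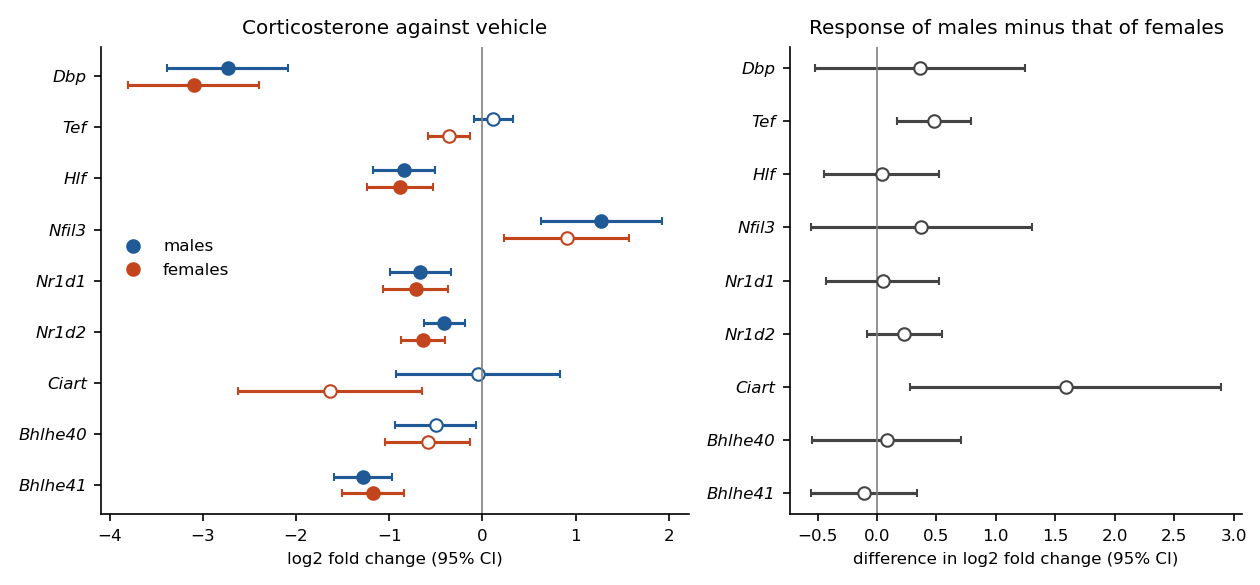
Left, log2 fold change of CORT against VEH with its 95% CI for each gene in males and females, with closed symbols for an adjusted p under 0.01. Right, the difference between the responses, males minus females, where every symbol is open and only the intervals of Tef and Ciart lie away from 0.

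Whether the responses differed between the sexes was tested with an interaction term. None of the 9 genes were called (edgeR, adjusted p threshold of 0.01), against 0.743% of all genes tested, and 2 had an unadjusted p under 0.05. These were Tef, with a difference of 0.48 in log2 fold change, males minus females (95% CI 0.17 to 0.79, adjusted p = 0.0411), and Ciart, with a difference of 1.59 (95% CI 0.28 to 2.90, adjusted p = 0.0914). DESeq2 and limma-voom called none of the 9 either. For Dbp the interval of the difference ran from -0.52 to 1.25 and for Nfil3 from -0.56 to 1.31, so that sizeable differences were not detectable with this spread among mice. The interval was narrower for Nr1d2, from -0.09 to 0.55, and for Bhlhe41, from -0.56 to 0.33. Nfil3 passed the test in males and not in females, and the difference between its responses had an adjusted p of 0.590.

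Males and females were also compared at the same treatment. With VEH, Bhlhe41 was the only one of the 9 genes called, where 0.950% of all genes were. Its level was 82.9 ± 5.87 CPM (SD, n = 6) in males and 46.8 ± 7.75 CPM (n = 6) in females, and every male was above every female. The share of all genes with such a separation was not computed. Bhlhe41 was 1.77-fold higher in males (log2 difference 0.82, SE 0.15, adjusted p = 0.00205). The other 8 genes had log2 differences of -0.29 (Dbp) to 0.16 (Nr1d1), males minus females.

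With CORT, Bhlhe41 was again the only one of the 9 called, where 23.1% of all genes were. It was at 34.1 ± 9.78 CPM (n = 6) in males and 20.8 ± 3.61 CPM (n = 5) in females (log2 difference 0.71, SE 0.16, adjusted p = 0.00163), and M8 was below the highest females. With only the 2 CORT groups in the fit this adjusted p of Bhlhe41 was 0.0166. Every CORT male was above every CORT female in Ciart, at 4.38 ± 0.844 and 1.46 ± 0.872 CPM. The share of all genes with such a separation of the sexes was not computed. The log2 difference of Ciart, 1.58 (SE 0.47), had an adjusted p of 0.0121. That p of Ciart was 0.00161 with DESeq2, 0.00801 with only the 2 CORT groups in the fit and 0.00955, 0.00665 and 0.00838 without M7, F1 and F11, but 0.0249 with no filter beyond 1 count and 0.0722 with limma-voom. Tef had a log2 difference of 0.34 (SE 0.11, adjusted p = 0.0175), which was 0.00301 with DESeq2, 0.00381 with limma-voom and 0.00541 without F4, and up to 0.0430 in the other fits without 1 mouse. In these same groups 3 markers each of Schwann cells (of 4), macrophages (of 5) and fibroblasts (of 4) were lower in males, with summed fibroblast levels of 302 to 463 CPM in males and 461 to 853 CPM in females, and their part in the result was not tested. The labels give no batch, and sex and any batch of the sexes cannot be told apart.

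Some pairs of these genes varied together among mice of the same group. Deviations of log2 CPM from the group mean were correlated for the 36 pairs of the 9 genes and for each gene with Arntl, over 23 mice. The p-values came from 100000 permutations of mice within groups, two-sided and adjusted over the 45 pairs. The permutations treated mice as independent. Same-numbered VEH males and females lay on the same side of their group means in Dbp, which these p-values do not allow for. With Pearson's r, 13 pairs passed an adjusted p of 0.05, 9 between the 9 genes and 4 with Arntl, and with Spearman's rho 11 passed. Of the 9, 8 were positive and 1 was negative. How many pairs of other genes would pass was not computed, so that these counts have no background. The negative one was Dbp with Nfil3, the activator and the repressor of D-boxes (r = -0.82, rho = -0.77, adjusted permutation p = 9.00e-04 and 0.00203). It was -0.75 in males, -0.89 in females, and -0.76 over all mice without F11 and M12, the 2 mice farthest from the median of Dbp.

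The correlations with Arntl split the genes by sign. Nfil3 (r = 0.84, rho = 0.84, adjusted permutation p = 9.00e-04 and 0.00203) and Nr1d1 (r = 0.71, rho = 0.62, adjusted permutation p = 0.00954 and 0.0283) were high in the mice where Arntl was high. Dbp (r = -0.70, rho = -0.67, adjusted permutation p = 0.00911 and 0.0170) and Ciart (r = -0.73, rho = -0.70, adjusted permutation p = 0.0110 and 0.0170) were low in those mice. Without the 2 mice farthest from the median these 4 values of r were 0.74, 0.65, -0.61 and -0.65. The group means of Arntl itself moved little with CORT, with log2 fold changes of 0.01 in males (SE 0.27, adjusted p = 0.973) and 0.17 in females (SE 0.28, adjusted p = 0.698). The pair of REV-ERB genes, Nr1d1 and Nr1d2, had r = -0.20 and rho = -0.03 (adjusted permutation p = 0.585 and 0.903), which did not pass.

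**Figure D4:**
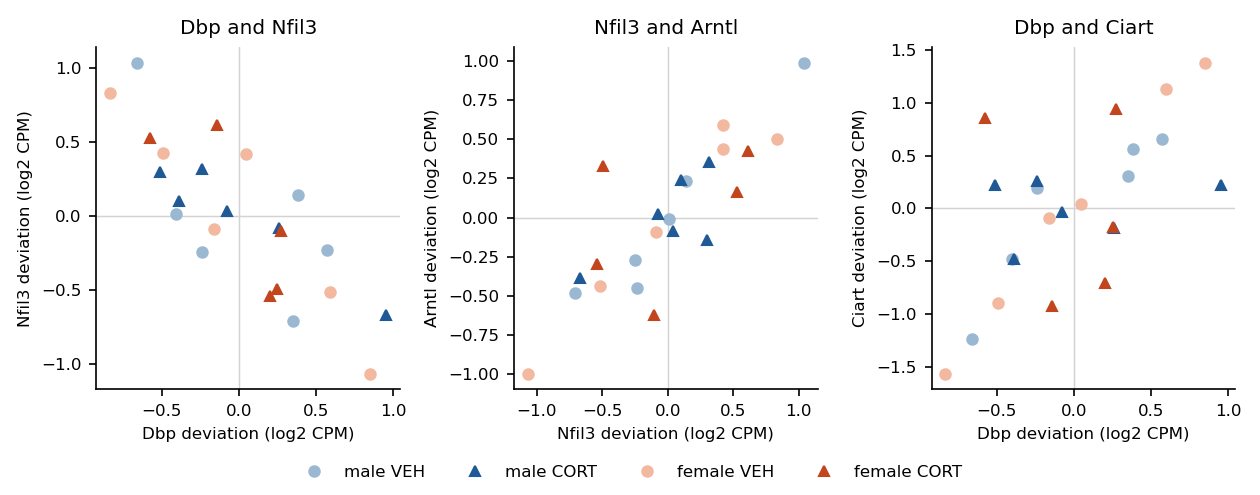
Deviation of log2 CPM from the group mean in each of the 23 mice, for Dbp and Nfil3, Nfil3 and Arntl, and Dbp and Ciart, with circles for VEH and triangles for CORT mice. Dbp and Nfil3 fall on a descending line in both treatments, while Dbp and Ciart rise together among the 12 VEH mice (r = 0.96) and not among the 11 CORT mice (r = -0.04).

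Among VEH mice the same animals stood at the ends for several genes. F11 had the highest Dbp (189 CPM), Ciart (9.35 CPM), Hlf (17.2 CPM) and Nr1d2 (151 CPM) and the lowest Nfil3 (10.7 CPM) and Nr1d1 (125 CPM) of the 12. M7 was the reverse, with the lowest Dbp (56.0 CPM) and the highest Nfil3 (46.9 CPM) and Nr1d1 (298 CPM), and F1 was next to it in Dbp (58.9 CPM) and Nfil3 (40.1 CPM) and had the lowest Ciart (1.17 CPM). Within the 12 VEH mice r was 0.96 for Dbp and Ciart, 0.93 for Nfil3 and Nr1d1, 0.97 for Nfil3 and Arntl, and 0.92 for Nr1d1 and Arntl. Within the 11 CORT mice the same pairs had r of -0.04, 0.03, 0.52 and 0.13. Dbp and Nfil3 had r = -0.82 in each treatment. This split by treatment was chosen after the data were seen, no p is given for it, and the differences between the values of r were not tested.

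**Figure D5:**
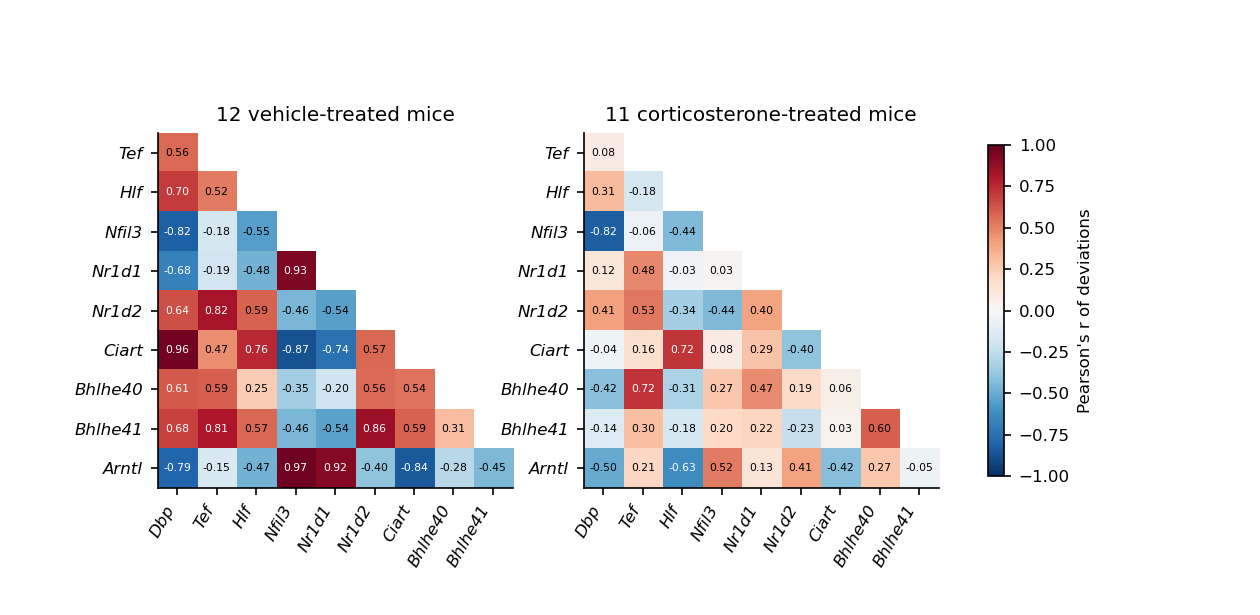
Pearson's r of deviations from the group mean for each pair of the 9 genes and Arntl, in the 12 VEH mice (left) and the 11 CORT mice (right), with red for positive and blue for negative values. In VEH mice Nfil3, Nr1d1 and Arntl form 1 set (r of 0.92 to 0.97 among themselves) and Dbp and Ciart (0.96) another of opposite sign, and in CORT mice the strongest value is that of Dbp with Nfil3 (-0.82).

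The genes whose deviations were most like those of 3 of the genes were then looked up among 13039 other genes over the 23 mice, by Pearson's r and as a description. For Dbp these were Gm44220 (r = 0.84), Plcd1 (0.81), Gstt2 (0.79), Cox17 (0.76) and the clock gene Per3 (0.75). For Nfil3 they were Arntl (0.84), Ccdc134 (0.80), Wbp1l (0.79), Zdhhc6 (0.78) and Top1mt (0.77). For Nr1d1 they were March4 (0.83), Leo1 (0.79), Prr13 (0.78), Mlxip (0.77) and Tmem109 (0.76). A clock gene outside the 9 thus stood among the 5 nearest of Dbp and of Nfil3, and none stood among those of Nr1d1.

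Other genes of the core clock were described for comparison. In males Per1, a repressor of the clock that glucocorticoids induce, rose by 1.402 in log2 fold change, Cry2 by 1.14, the receptor gene Rora by 0.74 and the kinase gene Csnk1e by 0.41. In females the kinase gene Csnk1d fell (-0.26, against -0.10 in males, adjusted p = 0.241). Per1 (0.29, adjusted p = 0.533), Cry2 (0.28, adjusted p = 0.190), Rora (-0.18, adjusted p = 0.477) and Csnk1e (0.12, adjusted p = 0.508) did not pass in females. For the difference between the responses none of these genes was called (edgeR). The adjusted p was 0.0960 for Per1, 0.0179 for Cry2, 0.0226 for Rora, 0.230 for Csnk1e and 0.248 for Csnk1d.

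Among 7 genes that REV-ERBs are known to repress, 2 rose in males, Nfil3 and the cell cycle inhibitor Cdkn1a (log2 fold change 4.43), and 1 rose in females, Cdkn1a (2.89). Nfil3 is itself among the 9 genes. Arntl, Clock and Cry1 were not called in either sex, and Npas2, the relative of Clock, had log2 fold changes of -0.08 in males (adjusted p = 0.865) and 1.17 in females (adjusted p = 0.0123). The list's median was 0.05 in males and 0.90 in females, beside -0.02 and 0.04 over all genes tested. The female median is the value of Nfil3 itself, which did not pass in females. Of all genes tested, 13.2% were called higher in males and 7.25% in females.

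Genes with known D-boxes and E-boxes moved in both directions in males. Of 7 D-box genes 6 were tested, and in males Per1 and Rora rose while Nr1d1 and Nr1d2 fell. In females Nr1d1 and Nr1d2 fell, and Per3 had a log2 fold change of -0.75 (adjusted p = 0.0102). Among genes with known E-boxes, Dbp, Bhlhe41, Nr1d1 and Nr1d2 fell in both sexes and Per1 rose in males. The genes that fell in these lists are among the 9 genes, so that their falls are those given above. No gene of these lists outside the 9 was called lower in either sex. The medians of the D-box list, which include Nr1d1 and Nr1d2, were 0.25 in males and -0.41 in females, beside -0.02 and 0.04 over all genes. Outside the 9 genes, the female log2 fold changes were 0.29 (Per1), 0.21 (Per2), -0.75 (Per3) and -0.18 (Rora). The male ones were 1.40, 0.63, -0.12 and 0.74 in the same order. The female median of the list thus does not describe D-box genes apart from the 9.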

How the data were processed

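Quadriceps RNA of 23 mice was sequenced as read pairs. The authors aligned them with STAR 2.7.3a to mm10 and counted pairs per gene by strand with HTSeq 0.12.4, and the deposited counts are neither normalized nor pooled. Gene names were those of GENCODE M21 (GRCm38), found for 55480 of 55573 gene IDs. The 5 summary entries, with 10.7% to 15.3% of the pairs of a mouse, were left out. No replicates agreed within sampling noise (lowest chi-square per degree of freedom 15.0 over 55 pairs).

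Counts were tested in R 4.3.3 with edgeR 4.0.16 (quasi-likelihood test, TMM, 1 model of 4 group means) for 13049 genes, those that exceeded 20 normalized counts in 4 or more mice of a group. Benjamini-Hochberg adjustment covered all 13049, the threshold was an adjusted p of 0.01, and the code was tested on simulated counts. CPM used TMM library sizes, and log2 CPM for deviations a prior count of 1. Groups follow the sex and treatment in the labels.

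All 9 genes are named, and lists of related genes are described by counts and medians or by named genes. Some genes of these lists are not reported here. The genes and lists were chosen with earlier results of these data known. Alternatives were DESeq2 1.42.0, limma 3.58.1 (voom with quality weights), the median of ratios, 2 other filters, 2 other thresholds, only the groups compared, a replicate block and 23 fits without 1 mouse.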

Additional observations from a re-analysis of the deposited data

Results flagged for a closer look

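In each group the highest and the lowest mouse were compared with the next one, for the 9 genes in 4 groups, 36 sets of values in all, and chance alone would mark about 1 in 20 of them. In 2 sets a mouse stood apart beyond Dixon's 95% critical value. Among the male VEH mice, M7 had an Nfil3 level of 46.9 CPM, where its gap to the next mouse was 0.659 of the range of the group. Among the same males, M1 had an Nr1d2 level of 86.7 CPM, where the gap was 0.705 of the range. Nfil3 was called higher in males with and without M7, and Nr1d2 was called lower with and without M1.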

How the results depend on the processing

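Dbp and Bhlhe41 were called lower in both sexes under the 8 alternatives run within a sex and in 23 of 23 fits without 1 mouse. Without 1 mouse, the number of the 9 genes called ran from 5 to 6 in males, 4 to 6 in females, 0 to 0 for the difference between the responses, 1 to 1 for the sexes with VEH and 1 to 2 with CORT. With an adjusted p under 0.05 the counts became 8 in females, 1 for the difference between the responses and 3 for the sexes with CORT. With an added limit of 1 on the log2 fold change they became 3 in males, 2 in females, 0 for the sexes with VEH and 0 with CORT. With only the 2 groups compared in the fit, 2 genes passed in females. For the sexes with CORT, DESeq2 called 3 genes and limma-voom 2. The cause of these changes was not tested, beyond the fewer mice and the other limits.

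Males and females share replicate numbers. Same-numbered mice of the 11 such pairs had correlations of deviations over all genes tested from -0.38 to 0.48, 7 of 11 above 0.1. Pairs of VEH mice ran from 0.085 to 0.48 and pairs of CORT mice from -0.38 to 0.24. In Dbp, VEH mice with the same number lay on the same side of their group means, such as F11 (0.85) and M11 (0.57). Among CORT mice this held for numbers 2, 8 and 10 and not for 4 and 6. The labels do not say that the numbers pair mice, and the main fit did not pair them. What same-numbered mice share was not tested. With the replicate block, 2 genes were called for the sexes with CORT, Bhlhe41 (log2 difference 0.66, adjusted p = 0.00338) and Ciart (1.67, adjusted p = 0.00681), and it moved no other count of calls. No paired fit was possible within a sex, where VEH and CORT mice share no number.

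Values near 0 changed sign. For Ciart in males limma-voom gave 0.0041 and fits without 1 mouse -0.22 to 0.089. For the difference between the responses, Hlf was -0.017 with the replicate block, -0.033 with limma-voom and -0.10 to 0.15 without 1 mouse, and Nr1d1 was -0.055, -0.060 and -0.043 to 0.15. Bhlhe40 ran from -0.029 to 0.20 there without 1 mouse. For the sexes with VEH, Ciart was 0.0030 with no filter beyond 1 count, 0.19 with the replicate block, 0.17 with limma-voom and -0.21 to 0.33 without 1 mouse. The correlation of Dbp and Ciart was -0.042 in CORT mice alone. The low counts of Ciart limit what can be said of it.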

Other observations

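Among 9 other output genes of the clock, Lonrf3 rose in both sexes, with a log2 fold change of 1.31 in males (SE 0.27, adjusted p = 5.10e-04) and 1.502 in females (SE 0.28, adjusted p = 6.26e-04). Lonrf3 was near the filter on low counts, with at most 62 counts in a mouse, and passed it through the CORT groups. Its median was 0.764 CPM with VEH and 1.75 with CORT in males, and 0.614 and 1.67 in females. Coq10b, a coenzyme Q binding protein, fell in both, by 1.003 on the log2 scale in males (adjusted p = 1.06e-04) and by 0.87 in females (adjusted p = 0.00146). Nampt, the rate-limiting enzyme of NAD salvage, rose in males (log2 fold change 0.29, adjusted p = 0.00918) and did not pass in females (0.18, adjusted p = 0.152). Gpcpd1 fell in females (-1.05, adjusted p = 0.00131) and just missed the threshold in males (-0.68, adjusted p = 0.0103). For the difference between the responses of the sexes edgeR called none of the 9, and 0 had an unadjusted p under 0.05. The medians of the list were 0.29 in males and 0.07 in females.

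Of the corepressor genes through which REV-ERBs act, Tbl1x had log2 fold changes of -0.38 in males (adjusted p = 0.0484) and 0.36 in females (adjusted p = 0.0889). Tbl1xr1 had 0.25 in males (adjusted p = 0.0297) and -0.13 in females (adjusted p = 0.342), Hdac3 had 0.10 (adjusted p = 0.308) and -0.25 (adjusted p = 0.0274), and Ncor1 had 0.09 (adjusted p = 0.368) and -0.08 (adjusted p = 0.512). These 8 values did not pass the threshold.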
